A study of Rattus norvegicus with 12 samples.

Results

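DNA replication copies the genome during S phase of the cell cycle. Origins are marked by the origin recognition complex, which with Cdc6 and Cdt1 loads the MCM2-7 helicase. Kinases, Mcm10, Cdc45 and the GINS complex then switch the helicase on, and polymerases, held to DNA by the sliding clamp PCNA, copy the strands. Many of the genes for these proteins are transcribed together at the boundary of G1 and S by the E2F transcription factors. In bone, dividing cells are found among osteoprogenitors and, in larger numbers, among the blood-forming precursors of the marrow.

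The genes described here are 42 named components of this machinery: origin licensing factors, the MCM2-7 helicase and its activators, the clamp and its loader, polymerases, enzymes of strand joining and repair, enzymes of deoxynucleotide supply, chromatin assembly factors and regulators of entry into S phase. They were chosen by name from a list, with earlier results of these data known. Their probes were found through the gene names of the array design. All 42 were on the array, 41 of them among the 22718 genes that passed the signal filter, and 37 were well above background on all 12 arrays. The untested gene was Dnmt1, the maintenance DNA methyltransferase. No array showed its probe well above background, so Dnmt1 was not tested.

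The study measured total RNA of bone from the rat calvaria (the roof of the skull) on 12 Agilent arrays with 1 dye, 4 per group in 3 groups. All rats were 10 weeks old and the bone was taken 72 h after surgery. In the laser group a rectangular defect of 8 × 3 mm was cut with an Er:YAG laser, whose infrared light is absorbed by water in hard tissue, at 20 Hz and an output of 127 mJ per pulse. In the bur group a defect of the same size was drilled with a rotating bur. Control bone had its periosteum removed and was not ablated according to the protocol, while the series text calls it untreated. No strain, genotype or animal number was given, and no label says that the samples of a group came from separate animals. The p-values therefore reflect no more than how these samples spread, and part of that spread may be technical.

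Values are log2 signals relative to the 75th percentile of each array, so that 0 stands for a probe as bright as that percentile and a log2 difference of 1 is a 2-fold difference in signal. The share of probes well above background was between 58.1% and 67.0% per array. Of 16 osteoblast and osteocyte markers listed, 14 were among the genes tested, and those 14 were well above background on all 12 arrays. Bglap (osteocalcin) lay between 7.58 and 8.39 and Col1a1 (type I collagen) between 7.44 and 8.23. The probes of the osteoblast factor Sp7 (-4.30 to -3.27) and of the osteocyte genes Sost (-4.25 to -2.61) and Phex (-5.42 to -2.71) lay below the 75th percentile on every array. Control arrays lay on another slide and scan than the laser and bur arrays, so slide and ablation cannot be told apart. Laser and bur arrays shared a slide but differed in a position index on it, a row or a column, which coincides with the groups.

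The RefSeq promoter table of rat assembly GRCr8, which runs from 250 bases before to 50 bases after each start, held 38 promoters of 35 of the 42 genes. Promoters of Orc1, Cdc6, Mcm4, Rrm2, Ccne2, E2f1 and Atad2 are not analysed here. A short form of the E2F motif, TTTGGCG or TTTCGCG on either strand, was found in 21 of the 38 promoters, or 55.3%, which belong to 19 genes. Over all 33469 promoters of the table the share was 2.21%. These matches describe letters in a window and are not shown to be bound sites. The 6 stretches below cover the 150 bases before the start of every gene that was lower in at least 1 ablated group and whose match lay wholly within them. Each runs 5′ to 3′ on the strand of the gene, with the E2F matches in capitals. The Mcm2 stretch is chr4:122918095-122918244 on the minus strand, where 2 overlapping matches form a palindrome whose first letter lies 14 bases before the start. The Mcm7 stretch is chr12:22163179-22163328 on the minus strand, with the match 52 bases before the start. The Cdc45 stretch is chr11:95690028-95690177 on the plus strand, with the match 59 bases before the start. The Gins1 stretch is chr3:160184770-160184919 on the plus strand, with 2 overlapping matches that begin 25 bases before the start. The Tyms stretch is chr9:120776084-120776233 on the minus strand, with the match 37 bases before the start. The Dut stretch is chr3:132952749-132952898 on the plus strand, with the match 25 bases before the start.
Mcm2: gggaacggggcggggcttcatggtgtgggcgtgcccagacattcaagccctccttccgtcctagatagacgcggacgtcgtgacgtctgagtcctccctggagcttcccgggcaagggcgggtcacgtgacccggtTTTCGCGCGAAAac
Mcm7: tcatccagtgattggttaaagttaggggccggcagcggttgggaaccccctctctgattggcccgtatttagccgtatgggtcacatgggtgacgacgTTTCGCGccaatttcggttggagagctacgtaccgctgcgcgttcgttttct
Cdc45: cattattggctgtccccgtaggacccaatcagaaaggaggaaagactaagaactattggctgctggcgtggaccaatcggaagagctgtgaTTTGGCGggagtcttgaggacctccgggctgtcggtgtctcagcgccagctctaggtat
Gins1: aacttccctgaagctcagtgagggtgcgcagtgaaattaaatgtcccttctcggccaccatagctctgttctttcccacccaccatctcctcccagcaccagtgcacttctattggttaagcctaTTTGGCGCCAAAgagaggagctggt
Tyms: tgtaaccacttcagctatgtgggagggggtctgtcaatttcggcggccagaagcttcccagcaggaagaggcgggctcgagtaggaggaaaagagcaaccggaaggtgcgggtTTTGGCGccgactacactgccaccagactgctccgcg
Dut: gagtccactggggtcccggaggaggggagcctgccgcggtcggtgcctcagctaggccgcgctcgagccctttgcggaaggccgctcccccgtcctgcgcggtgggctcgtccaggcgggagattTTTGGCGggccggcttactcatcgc

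The CCAAT box, searched as CCAAT on either strand, was in 63.2% of the promoters of these genes and in 37.5% of all promoters. The CHR motif, searched as TTTGAA or TTCGAA on either strand and known from genes that peak in mitosis, was in 15.8% of them and in 19.7% of all promoters. A list of 36 mitosis genes differed in its letters: 6.06% of its 33 promoters held the E2F match, 78.8% the CCAAT box and 69.7% the CHR motif. Among the other replication genes, 33.3% of 51 promoters held the E2F match.

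**Figure D1:**
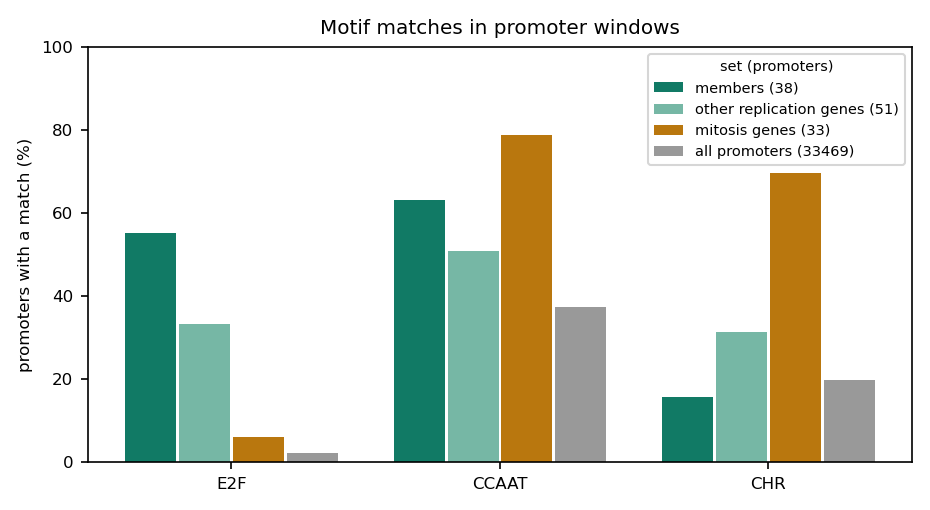
Share of promoter windows (%, vertical axis) that hold an E2F, CCAAT or CHR match, for the replication genes described here, other replication genes, mitosis genes and all promoters of the RefSeq table. The E2F match stands at 55.3% for the replication genes against 2.21% of all promoters, while the CHR match stands at 69.7% for the mitosis genes.

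Replication genes were lower in laser-ablated bone than in control bone. By limma, 28 of the 41 tested genes fell and 0 rose, where 13.0% of all 22718 genes fell and 9.26% rose. The median log2 difference over the 41 genes was -0.85, against 0.02 over all genes, and 40 of the 41 differences were below 0. In 18 of the genes every laser array lay below every control array, which held for 10.1% of all genes. Genes of licensing, helicase, polymerase, strand joining and deoxynucleotide supply all contributed to the 28.

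Replication genes were also lower in bur-drilled bone than in control bone, where 26 of the 41 genes fell and 0 rose. Of all genes, 16.2% fell and 9.99% rose in this comparison. The median log2 difference was -0.76, and 40 of the 41 differences were below 0. In 21 genes every bur array lay below every control array, which held for 15.7% of all genes. All 26 were among the 28 that fell after laser ablation. Orc1 and Tyms fell in laser bone and missed the threshold in bur bone, and 13 genes passed in neither comparison. Both comparisons use the same 4 control arrays, so they are not independent of each other.

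Every called gene kept its sign in each fit that left out 1 array, but many adjusted p-values lay close to the threshold, so the counts moved. With control replicate 1 left out, 3 genes remained past the threshold in laser bone and 11 in bur bone. Without control replicate 4 the counts were 12 and 16. The laser count was also 3 on leaving out laser replicate 2, 7 for laser replicate 3 and 13 for laser replicate 4, and the bur count was 12 without bur replicate 1 and 11 without bur replicate 3. The share of all genes called lower moved in the same fits. In laser bone it was 13.0% with all arrays, 3.50% without control replicate 1, 5.03% without control replicate 4, and 3.53%, 4.39% and 7.03% without laser replicates 2, 3 and 4. In bur bone it was 16.2% with all arrays, 8.41% and 10.0% without control replicates 1 and 4, and 10.5% and 9.67% without bur replicates 1 and 3. Over these fits, each leaving out 1 array, the median log2 difference stayed between -1.06 and -0.64 in laser bone and between -0.97 and -0.57 in bur bone.

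**Figure D2:**
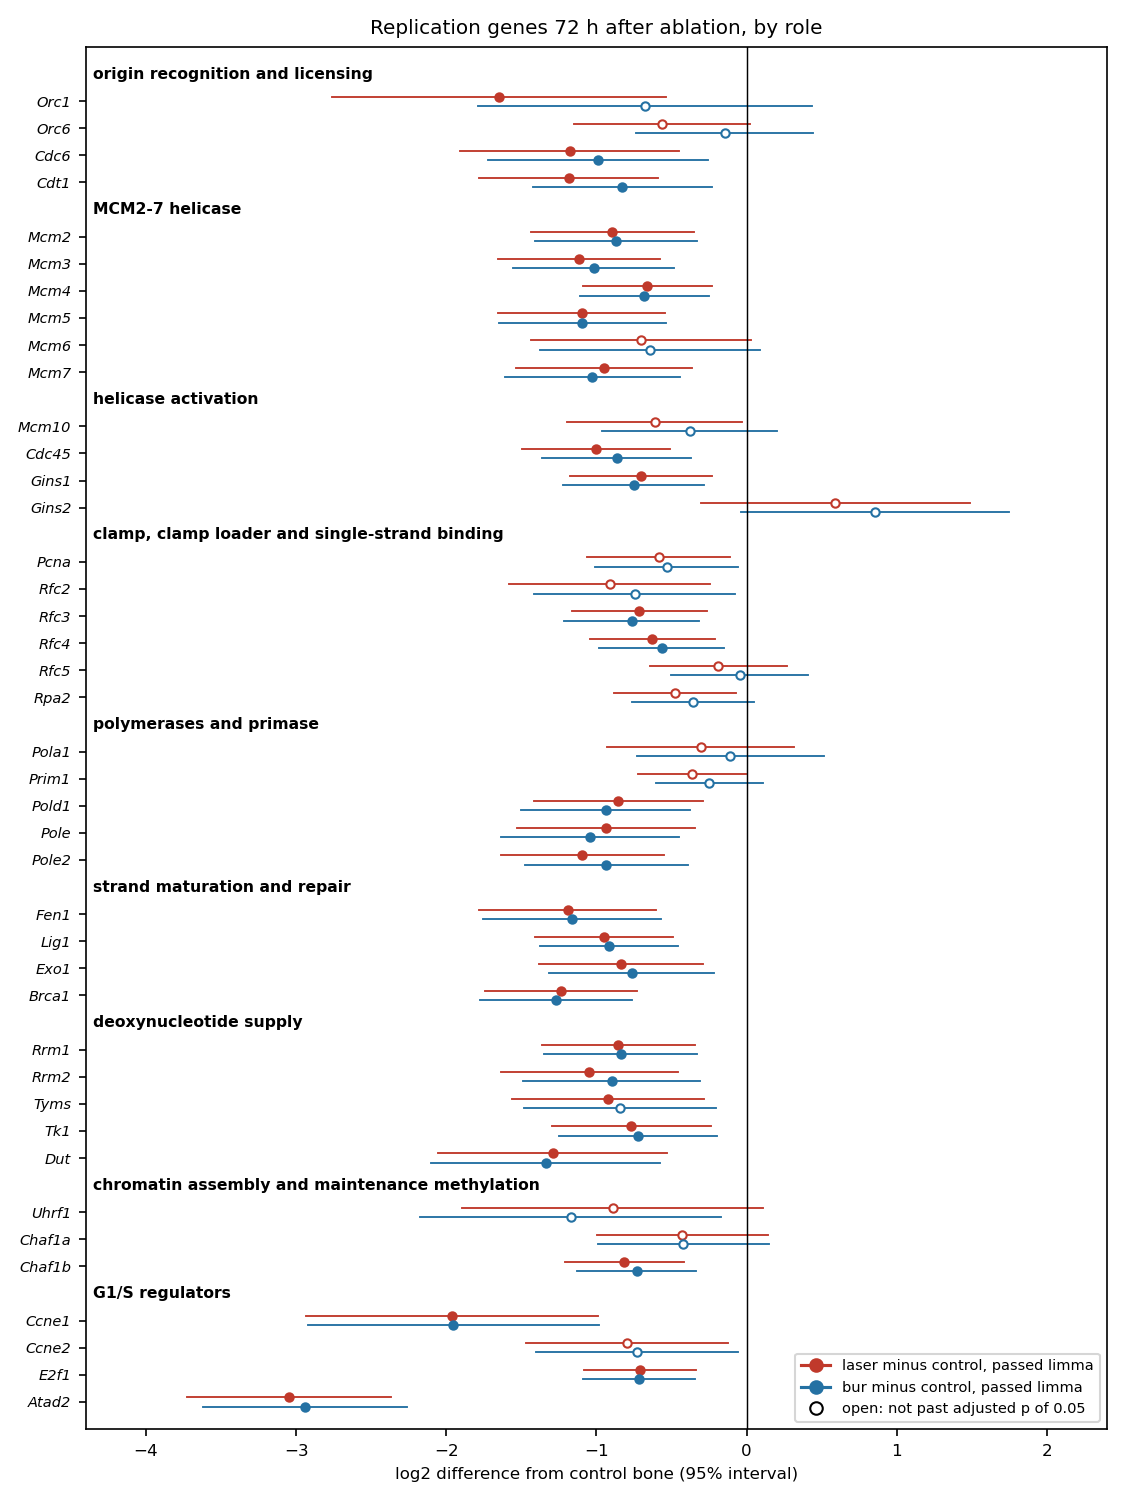
Log2 difference from control bone (horizontal axis) with its 95% interval for the 41 tested genes, grouped by role, laser minus control above bur minus control for each gene. Filled points passed an adjusted p of 0.05 by limma, 28 in laser and 26 in bur bone, and Gins2 is the gene to the right of 0.

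The spread of the replication genes was widest among the control arrays. Control replicate 4 was the highest control array for all 41 tested genes and the highest of all 12 arrays for 40 of them, while control replicate 3 was the lowest control array for 33. Within the ablated groups, laser replicate 1 was the highest laser array for 30 genes and bur replicate 3 the lowest bur array for 31. The median SD over the genes was 0.24 in laser bone, 0.20 in bur bone and 0.54 in control bone. The SD was smaller in laser bone than in control bone for 37 of the 41 genes, and smaller in bur bone than in control bone for 40.

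Origin licensing opens the sequence. Of its 4 genes, 3 fell in laser bone and 2 in bur bone. Cdt1, the factor that delivers the MCM ring to the origin, had log2 signals of -6.20, -6.84, -6.64 and -6.67 on the laser arrays, -6.55, -5.57, -6.64 and -6.17 on the bur arrays and -5.20, -5.44, -5.99 and -4.98 on the control arrays. Every laser array lay below every control array, while bur replicate 2 reached into the control range. For Cdt1 the log2 difference was -1.18 (SE 0.27, adjusted p = 0.0180) in laser bone and -0.83 (SE 0.27, adjusted p = 0.0436) in bur bone. The probe was dim, and the size of this difference depended on the background correction: with normexp it was -0.34 in laser bone (adjusted p = 0.126) and -0.53 in bur bone (adjusted p = 0.0159), where normexp moved the median of all genes to -0.08 in laser bone and -0.24 in bur bone. A fit to the authors' deposited log2 values gave Cdt1 -0.36 (adjusted p = 0.0764) in laser bone and -0.32 (adjusted p = 0.107) in bur bone. Cdc6, an ATPase that loads the helicase with the origin recognition complex, had log2 signals of -2.35, -3.10, -3.01 and -3.18 on the laser arrays, -2.77, -2.27, -2.95 and -2.90 on the bur arrays and -1.72, -1.72, -2.65 and -0.82 on the control arrays. Control replicate 3 lay within the range of the laser and bur arrays, and the other control arrays lay above it. Cdc6 differed by -1.18 (SE 0.33, adjusted p = 0.0313) on the log2 scale in laser bone and by -0.99 (SE 0.33, adjusted p = 0.0484) in bur bone.

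Orc1, the largest subunit of the origin recognition complex, had log2 signals of -6.50, -6.50, -8.60 and -6.55 on the laser arrays, -6.29, -5.53, -6.52 and -5.91 on the bur arrays and -5.18, -6.22, -5.78 and -4.37 on the control arrays. Laser replicate 3 lay far below the other laser arrays, and the probe was well above background on 1 laser array, 4 bur arrays and 3 control arrays. Orc1 differed by -1.65 (SE 0.51, adjusted p = 0.0397) in laser bone, and without laser replicate 3 by -1.13 (adjusted p = 0.0839). With normexp the laser difference of Orc1 was -0.40 (adjusted p = 0.0804), and from the authors' deposited log2 values it was -0.51 (adjusted p = 0.0731). In bur bone the log2 difference was -0.67 (SE 0.51, adjusted p = 0.337), and bur and control arrays overlapped. Orc6, the smallest subunit, had log2 differences of -0.56 (adjusted p = 0.143) in laser bone and -0.15 (adjusted p = 0.712) in bur bone.

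The MCM2-7 ring, the motor of the replicative helicase, has 6 subunits, of which 5 fell in laser bone and the same 5 in bur bone. Mcm3 had log2 signals of 1.45, 0.94, 0.90 and 1.23 on the laser arrays, 1.15, 1.49, 1.02 and 1.23 on the bur arrays and 2.41, 1.99, 1.66 and 2.91 on the control arrays. All ablated arrays lay below all control arrays. The log2 difference of Mcm3 was -1.11 (SE 0.25, adjusted p = 0.0161) in laser bone and -1.02 (SE 0.25, adjusted p = 0.0150) in bur bone. Mcm5 had log2 signals of 1.23, 0.55, 0.48 and 0.70 on the laser arrays, 0.65, 0.96, 0.65 and 0.71 on the bur arrays and 2.00, 1.70, 1.18 and 2.46 on the control arrays. Laser replicate 1 reached just above control replicate 3, and all bur arrays lay below all control arrays. Mcm5 differed by -1.10 (SE 0.25, adjusted p = 0.0181) in laser bone and by -1.09 (SE 0.25, adjusted p = 0.0130) in bur bone. For Mcm2, Mcm4 and Mcm7 the log2 differences were between -0.95 and -0.66 in laser bone and between -1.03 and -0.68 in bur bone. Mcm6 had -0.70 in laser bone and -0.64 in bur bone with a wider spread of its control arrays, and did not pass (adjusted p = 0.142 and 0.168). The other kept probes of Mcm2, Mcm3, Mcm4 and Mcm5 had differences below 0 too in both comparisons, from -0.77 to -0.37 in laser bone and from -0.68 to -0.13 in bur bone.

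Among the factors that activate the helicase, Cdc45 and Gins1 fell in both comparisons. Cdc45, the subunit that completes the active helicase, had log2 signals of 0.81, 0.44, 0.43 and 0.71 on the laser arrays, 0.58, 0.86, 0.63 and 0.88 on the bur arrays and 1.69, 1.32, 1.11 and 2.29 on the control arrays. The ablated arrays all lay below the control arrays. Cdc45 differed by -1.004 (SE 0.23, adjusted p = 0.0172) on the log2 scale in laser bone and by -0.86 (SE 0.23, adjusted p = 0.0199) in bur bone. Gins1, a subunit of the GINS complex, differed by -0.70 in laser bone (adjusted p = 0.0391) and by -0.75 in bur bone (adjusted p = 0.0270).

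Gins2, another GINS subunit, had log2 signals of -5.68, -4.87, -4.51 and -5.42 on the laser arrays, -4.27, -4.89, -5.35 and -4.91 on the bur arrays and -6.90, -5.58, -5.52 and -4.84 on the control arrays. Its arrays overlapped between all groups, with control replicate 1 the lowest of the 12. Gins2 had log2 differences of 0.59 (adjusted p = 0.304) in laser bone and 0.85 (adjusted p = 0.138) in bur bone. Its other kept probe had -0.44 in laser bone and -0.47 in bur bone, so the sign depended on the probe. Mcm10, which joins the helicase to the polymerase machinery, had -0.61 (adjusted p = 0.114) in laser bone and -0.38 (adjusted p = 0.305) in bur bone.

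Of the 6 genes of the clamp, its loader and the single-strand binding protein, 2 fell in both comparisons and 4 passed in neither. Rfc3 and Rfc4, subunits of the clamp loader, were the pair that fell. Rfc3 had log2 signals of 0.62, 0.53, 0.59 and 0.79 on the laser arrays, 0.57, 0.53, 0.39 and 0.83 on the bur arrays and 1.32, 1.17, 0.90 and 1.99 on the control arrays. All ablated arrays lay below all control arrays. The log2 difference of Rfc3 was -0.71 (SE 0.21, adjusted p = 0.0332) in laser bone and -0.76 (SE 0.21, adjusted p = 0.0217) in bur bone. Rfc4 differed by -0.63 (adjusted p = 0.0379) in laser bone and by -0.56 (adjusted p = 0.0479) in bur bone, where it was -0.37 (adjusted p = 0.0893) without control replicate 4.

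Pcna, the sliding clamp, had log2 signals of 1.44, 1.22, 1.32 and 1.39 on the laser arrays, 1.29, 1.49, 1.21 and 1.58 on the bur arrays and 1.95, 1.69, 1.44 and 2.62 on the control arrays. Every laser array lay below the lowest control array, if narrowly, and bur replicates 2 and 4 lay just above that array. Pcna differed by -0.59 (SE 0.22, adjusted p = 0.0711) on the log2 scale in laser bone and by -0.53 (SE 0.22, adjusted p = 0.0886) in bur bone, neither past the threshold. With the replicate number as a block in limma, the laser difference of Pcna passed (adjusted p = 0.0493), though no label says what the numbers share. Rfc2 had -0.91 (adjusted p = 0.0525) in laser bone and -0.75 (adjusted p = 0.0902) in bur bone. Rfc5 had -0.19 (adjusted p = 0.526) in laser bone and -0.05 (adjusted p = 0.889) in bur bone. Rpa2, a subunit of the protein that coats single-stranded DNA, had -0.48 (adjusted p = 0.0800) in laser bone and -0.36 (adjusted p = 0.165) in bur bone.

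Of the polymerase genes, 3 of 5 fell in both comparisons. Pole2, a subunit of polymerase epsilon, which copies the leading strand, had log2 signals of -4.74, -4.72, -4.85 and -4.68 on the laser arrays, -4.55, -4.30, -4.94 and -4.55 on the bur arrays and -3.80, -3.75, -4.21 and -2.84 on the control arrays. Laser arrays were nearly equal to each other, and all ablated arrays lay below all control arrays. The log2 difference of Pole2 was -1.09 (SE 0.25, adjusted p = 0.0174) in laser bone and -0.94 (SE 0.25, adjusted p = 0.0208) in bur bone. With normexp background correction the Pole2 difference was -0.61 (adjusted p = 0.0209) in laser bone, and in a fit to the authors' deposited log2 values it was -0.53 (adjusted p = 0.0984) in bur bone. Pold1, the catalytic subunit of polymerase delta on the lagging strand, differed by -0.85 (adjusted p = 0.0372) in laser bone and -0.94 (adjusted p = 0.0231) in bur bone.

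Pole, the catalytic subunit of polymerase epsilon, differed by -0.93 (SE 0.27, adjusted p = 0.0335) in laser bone and by -1.04 (SE 0.27, adjusted p = 0.0196) in bur bone. Its other kept probe had log2 differences of 0.02 in laser bone and -0.07 in bur bone, and with the mean of both probes the gene's difference was -0.46 (adjusted p = 0.0529) in laser bone and -0.55 (adjusted p = 0.0252) in bur bone. In a fit to the authors' deposited log2 values Pole had -0.27 (adjusted p = 0.132) in laser bone and -0.31 (adjusted p = 0.0814) in bur bone. The genes that start each new strand passed in neither comparison. Pola1, the catalytic subunit of polymerase alpha, had -0.31 (adjusted p = 0.449) in laser bone and -0.11 (adjusted p = 0.806) in bur bone. Prim1, the primase subunit that lays the RNA primer, had -0.36 (adjusted p = 0.123) in laser bone and -0.25 (adjusted p = 0.273) in bur bone.

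All 4 genes of strand maturation and repair fell in both comparisons. Fen1, the nuclease that removes the flap left before each Okazaki fragment, had log2 signals of 1.59, 0.78, 0.80 and 1.02 on the laser arrays, 0.94, 1.35, 0.91 and 1.097 on the bur arrays and 2.42, 2.19, 1.51 and 2.84 on the control arrays. Laser replicate 1 was just above control replicate 3, and the bur arrays all lay below the control arrays. Fen1 differed by -1.19 (SE 0.27, adjusted p = 0.0173) on the log2 scale in laser bone and by -1.16 (SE 0.27, adjusted p = 0.0129) in bur bone. Brca1, the homologous recombination factor that also protects stalled forks, had log2 signals of -1.44, -1.95, -1.92 and -1.52 on the laser arrays, -1.86, -1.58, -1.92 and -1.59 on the bur arrays and -0.37, -0.86, -0.84 and 0.18 on the control arrays. All ablated arrays lay below all control arrays. For Brca1 the log2 difference was -1.24 (SE 0.23, adjusted p = 0.00996) in laser bone and -1.27 (SE 0.23, adjusted p = 0.00597) in bur bone, and it passed in each of the 12 fits with an array left out. Its other kept probe, well above background on 1 laser, 4 bur and 1 control arrays, gave -1.38 (adjusted p = 0.0280) in laser bone and -0.48 (adjusted p = 0.347) in bur bone by limma, so the size in bur bone differed between the probes.

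Lig1, the ligase that seals Okazaki fragments, differed by -0.95 (adjusted p = 0.0162) in laser bone and -0.92 (adjusted p = 0.0126) in bur bone, again with no overlap between ablated and control arrays. Exo1, an exonuclease of mismatch repair and end resection, differed by -0.84 (adjusted p = 0.0368) in laser bone and -0.76 (adjusted p = 0.0434) in bur bone. The other kept Exo1 probe had -0.17 in laser bone and -0.05 in bur bone, with the mean of both probes at -0.50 and -0.41 and still past the threshold. In bur bone Exo1 had -0.51 (adjusted p = 0.0821) without control replicate 4.

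Of the 5 enzymes that supply deoxynucleotides, all 5 passed in laser bone and 4 of 5 in bur bone. Dut, the dUTPase that keeps uracil out of DNA, had log2 signals of 1.61, 0.48, 0.72 and 0.80 on the laser arrays, 0.82, 1.16, 0.39 and 1.05 on the bur arrays and 2.34, 2.14, 1.28 and 3.01 on the control arrays. Laser replicate 1 was the only ablated array above control replicate 3. The log2 difference of Dut was -1.29 (SE 0.35, adjusted p = 0.0269) in laser bone and -1.34 (SE 0.35, adjusted p = 0.0195) in bur bone. Rrm2, the regulated subunit of ribonucleotide reductase, had log2 signals of 2.73, 2.25, 1.94 and 2.50 on the laser arrays, 2.51, 2.74, 2.28 and 2.49 on the bur arrays and 3.43, 3.27, 2.75 and 4.17 on the control arrays. Laser replicate 1 and bur replicate 2 lay just below control replicate 3, and no ablated array overlapped the control arrays. Rrm2 differed by -1.05 (SE 0.27, adjusted p = 0.0238) in laser bone and by -0.90 (SE 0.27, adjusted p = 0.0316) in bur bone.

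Rrm1, the large subunit of the same enzyme, had log2 differences of -0.85 in laser bone and -0.84 in bur bone, both past the threshold. Tk1, the thymidine kinase of the salvage path, differed by -0.77 (adjusted p = 0.0420) in laser bone and -0.72 (adjusted p = 0.0461) in bur bone. Tyms, thymidylate synthase, had log2 signals of -2.49, -2.44, -2.60 and -2.69 on the laser arrays, -2.38, -2.18, -3.05 and -2.29 on the bur arrays and -1.42, -2.07, -2.23 and -0.81 on the control arrays. The laser arrays lay close together below all control arrays, and bur replicate 2 lay just above control replicate 3. Tyms differed by -0.92 (SE 0.29, adjusted p = 0.0434) in laser bone, and in bur bone the log2 difference was -0.84 (SE 0.29, adjusted p = 0.0525), which missed the threshold.

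Of the 3 tested genes of chromatin assembly and maintenance methylation, 1 fell in both comparisons. Chaf1b, a subunit of the histone chaperone CAF-1, had log2 signals of -0.18, -0.52, -0.52 and -0.51 on the laser arrays, -0.45, -0.25, -0.36 and -0.35 on the bur arrays and 0.48, 0.18, -0.02 and 0.87 on the control arrays. All ablated arrays lay below all control arrays. Chaf1b differed by -0.81 (SE 0.18, adjusted p = 0.0164) on the log2 scale in laser bone and by -0.73 (SE 0.18, adjusted p = 0.0163) in bur bone. Chaf1a, the large CAF-1 subunit, had -0.43 (adjusted p = 0.246) in laser bone and -0.42 (adjusted p = 0.245) in bur bone. Uhrf1, which reads hemimethylated DNA behind the fork, had -0.89 (adjusted p = 0.171) in laser bone and -1.17 (adjusted p = 0.0776) in bur bone. The Dnmt1 probe averaged -8.76 ± 0.62 in laser bone, -8.91 ± 0.61 in bur bone and -8.37 ± 0.57 in control bone (SD, n = 4 each), not well above background in any sample.

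Among the regulators of entry into S phase, Atad2 and Ccne1 held the steepest differences of the 41 genes in both comparisons, while E2f1 and Ccne2 did not stand out. Atad2, a chromatin ATPase that is itself an E2F target, had log2 signals of -6.09, -6.27, -7.35 and -6.93 on the laser arrays, -6.63, -6.64, -6.18 and -6.77 on the bur arrays and -3.50, -3.87, -4.13 and -2.96 on the control arrays. All ablated arrays lay far below all control arrays, and the probe was well above background on 2 laser arrays, 4 bur arrays and 4 control arrays. The log2 difference of Atad2 was -3.05 (SE 0.31, adjusted p = 0.00107) in laser bone and -2.94 (SE 0.31, adjusted p = 0.00112) in bur bone. With normexp it was -0.95 (adjusted p = 0.00429) in laser bone and -1.17 (adjusted p = 0.000722) in bur bone, and in a fit to the authors' deposited log2 values -1.40 and -1.39. The call did not depend on these choices, but the size did.

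Ccne1, cyclin E1, which activates Cdk2 at the start of S phase, had log2 signals of 0.27, -1.04, -0.91 and -0.66 on the laser arrays, -0.74, 0.02, -1.19 and -0.40 on the bur arrays and 1.93, 1.21, 0.16 and 2.21 on the control arrays. Laser replicate 1 lay above control replicate 3, and all bur arrays lay below all control arrays. Ccne1 differed by -1.96 (SE 0.44, adjusted p = 0.0173) on the log2 scale in laser bone and by -1.95 (SE 0.44, adjusted p = 0.0122) in bur bone. E2f1, the activating E2F factor itself, had log2 signals of -1.01, -1.39, -1.45 and -1.51 on the laser arrays, -1.27, -1.18, -1.40 and -1.53 on the bur arrays and -0.50, -0.61, -1.03 and -0.37 on the control arrays. Laser replicate 1 lay just above control replicate 3, and no bur array overlapped the control arrays. E2f1 differed by -0.71 (SE 0.17, adjusted p = 0.0195) in laser bone and by -0.72 (SE 0.17, adjusted p = 0.0139) in bur bone. Ccne2, cyclin E2, had -0.80 (adjusted p = 0.0792) in laser bone and -0.73 (adjusted p = 0.0973) in bur bone.

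**Figure D3:**
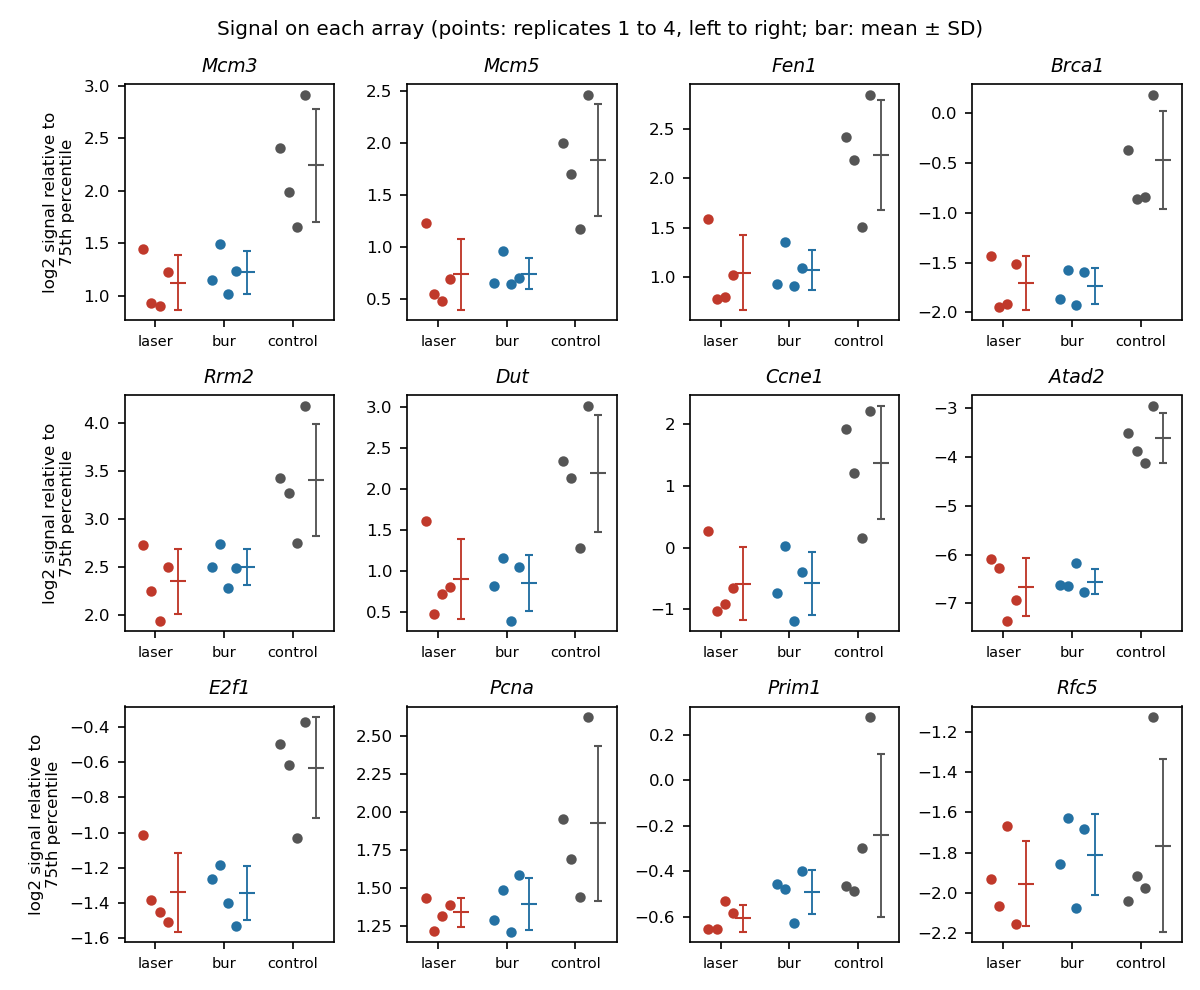
Log2 signal relative to the array's 75th percentile (vertical axis) of 12 replication genes on each laser, bur and control array, with the mean ± SD of 4 arrays beside the points. Control replicate 4 is the highest control point in every panel; Brca1, Atad2, Mcm3 and Rrm2 show no overlap between ablated and control arrays, while the arrays of Rfc5 overlap between all groups.

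Calls were also counted by the brightness of the probe, which is not a measure of transcript level between genes. Of the 15 genes whose probe averaged above the 75th percentile, 14 fell in laser bone and 14 in bur bone. Of the 26 dimmer genes, 14 fell in laser bone and 12 in bur bone. Over all genes the shares were 15.7% and 18.6% for bright probes and 12.3% and 15.6% for dim probes, in laser and in bur bone. By promoter letters, 13 of the 18 tested genes with a match fell in laser bone and 12 in bur bone, as did 9 and 9 of the 16 without one.

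Laser and bur bone were compared directly, on arrays of the same slide. No replication gene passed, nor did any of the 22718 genes, and the lowest adjusted p among the replication genes was 0.9998 by limma. At an unadjusted p under 0.05 there were 0 replication genes and 574 genes of all, or 2.53%. The median log2 difference over the 41 genes was -0.06, and the differences ran from -0.98 in Orc1 to 0.28 in Uhrf1. For 37 of the 41 genes the whole 95% interval lay within 1 log2 unit of 0, with a median distance of 0.56 from the estimate to either end.

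The intervals show how large a difference this fit could have missed. That of Brca1 was -0.47 to 0.54 and that of Mcm3 was -0.63 to 0.44. The interval of Ccne1 was wider, from -0.98 to 0.96. Those of Orc1, Orc6, Gins2 and Uhrf1 reached past 1 log2 unit, that of Orc1 from -2.09 to 0.14. A smaller difference between the ablation methods could therefore have been missed, and the high p-values do not show that the methods act alike. These intervals rest on 1 estimate of spread shared by all 3 groups, control arrays included. The median SD was 0.54 in control bone, 0.24 in laser bone and 0.20 in bur bone. With only the laser and bur arrays in the fit, 0 of the 22718 genes passed, and intervals of that fit are not given.

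Other genes of replication, 59 by name and 55 tested, were counted in the same way: 13 fell in laser bone and 16 in bur bone, 0 rose, and the median log2 differences were -0.45 and -0.35. Of all genes, 13.0% fell and 9.26% rose in laser bone, and 16.2% fell and 9.99% rose in bur bone. The list holds further subunits, licensing kinases and checkpoint genes. Supt16h, a subunit of the histone chaperone FACT, differed by -1.98 in laser bone (adjusted p = 0.00211) and by -1.98 in bur bone (adjusted p = 0.00154). Clspn (claspin), the checkpoint adaptor of the fork, differed by -1.42 in laser bone and -1.35 in bur bone, and Cdc7, the kinase that fires origins, by -1.17 in both. Cdca7, a gene known to respond to E2F1 and Myc in other mammals, differed by -1.27 in laser bone and -1.23 in bur bone. The laser count was 4 without control replicate 1, laser replicate 2 or laser replicate 3, 8 without control replicate 4 and 25 without control replicate 3. The share of all genes called lower in these fits was, in the same order, 3.50%, 3.53%, 4.39%, 5.03% and 18.2%. In bur bone the count of this list was 4 without control replicate 1 or bur replicate 3, 5 without control replicate 4 or bur replicate 1, 7 without bur replicate 4, 9 without control replicate 2 and 10 without bur replicate 2. Of all genes, 8.41% and 9.67% were called lower in bur bone without control replicate 1 and bur replicate 3. Without control replicate 4 and bur replicate 1 the shares were 10.0% and 10.5%. Without bur replicate 4, control replicate 2 and bur replicate 2 they were 11.6%, 12.4% and 13.3%. In bur bone the counts of 4 or 5 of 55 were no larger a share than that of all genes in the same fits. Those of 7, 9 and 10 were larger.

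Genes of mitosis act later in the cycle. Of 35 tested, 11 fell in laser bone and 11 in bur bone, 0 rose, and the median log2 differences were -0.61 and -0.53. The share of all genes that fell was 13.0% in laser bone and 16.2% in bur bone. The cell division marker Mki67 had a log2 difference of -1.21 (adjusted p = 0.0390) in laser bone and -1.12 (adjusted p = 0.0439) in bur bone. Pttg1 (securin) differed by -1.65 and -1.75, Nek2, a centrosome kinase, by -1.55 and -1.46, and Plk1, a kinase of spindle assembly, by -1.42 and -1.48, in laser and in bur bone. With the replicate number as a block the laser count was 18. It fell to 0 when control replicate 1, laser replicate 2 or laser replicate 3 was left out. Leaving out control replicate 4 gave 2, laser replicate 4 gave 3, control replicate 2 gave 7 and control replicate 3 gave 21. In bur bone it was 4 to 7 without any of 7 arrays, namely all control arrays but replicate 3, bur replicates 1, 3 and 4, and laser replicate 3, and 18 without control replicate 3. Over the same fits the share of all genes called lower ran from 3.50% to 18.2% in laser bone and from 8.41% to 20.3% in bur bone. In laser bone it was 5.03% without control replicate 4 and 7.03% without laser replicate 4, near the shares of 2 and 3 of 35. It was 8.65% and 18.2% without control replicates 2 and 3, below those of 7 and 21 of 35. In bur bone it was 8.41% to 14.8% over the 7 fits with 4 to 7 calls.

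A list of 25 G1 cyclins, RB family genes and CDK inhibitors held 7 lower and 2 higher genes in laser bone, and 7 lower and 2 higher in bur bone. Of all genes, 13.0% fell and 9.26% rose in laser bone, and 16.2% fell and 9.99% rose in bur bone. The 2 of 25 that rose are thus no larger a share than that of all genes. E2f2, another activating E2F, differed by -2.17 (adjusted p = 0.0182) in laser bone and -2.27 (adjusted p = 0.0114) in bur bone. E2f8, a repressing E2F, differed by -1.98 and -1.85, Tfdp2, a partner subunit of E2F factors, by -1.92 and -1.88, and Ccnd3 (cyclin D3) by -1.72 and -1.67, in laser and in bur bone. In mouse and human, E2f2, Tfdp2 and Ccnd3 are also known for their roles in the maturation of red cell precursors.

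The 2 genes that rose were the CDK inhibitor Cdkn1a (p21) and the G1 cyclin Ccnd1. Cdkn1a had log2 signals of 0.20, 0.70, 0.86 and 0.52 on the laser arrays, 0.32, 0.15, 0.67 and 0.19 on the bur arrays and -0.84, -0.26, -0.40 and -1.78 on the control arrays. All ablated arrays lay above all control arrays. The log2 difference of Cdkn1a was 1.39 (adjusted p = 0.0148) in laser bone and 1.15 (adjusted p = 0.0186) in bur bone. Ccnd1 differed by 0.78 (adjusted p = 0.0440) in laser bone and by 0.76 (adjusted p = 0.0427) in bur bone.

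**Figure D4:**
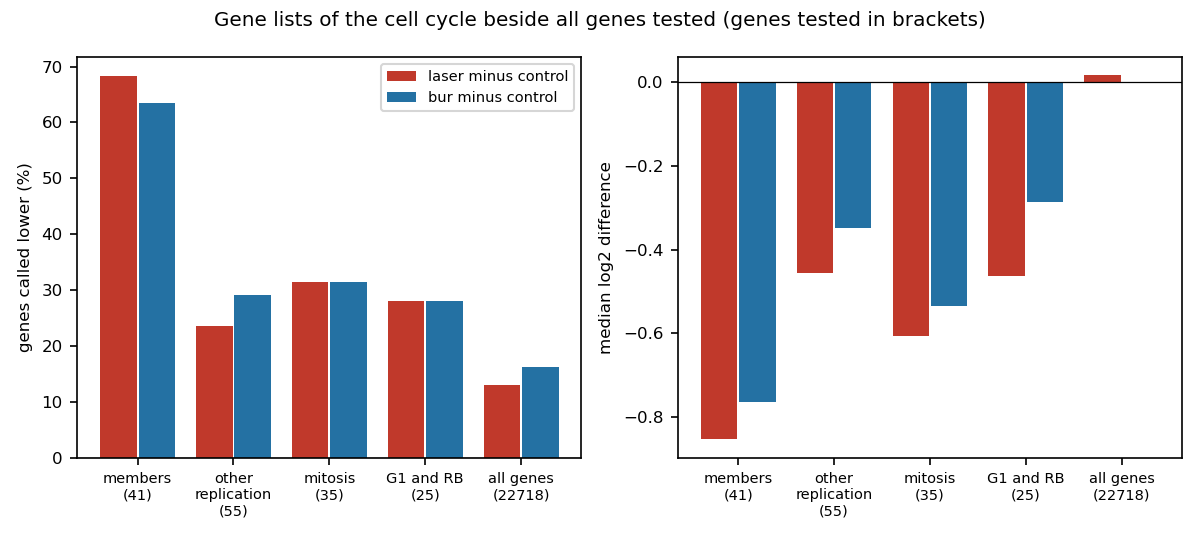
Share of genes called lower (left, %) and median log2 difference from control bone (right) for the 41 tested replication genes, other replication genes, mitosis genes, the G1 and RB list and all genes tested, laser beside bur. The replication genes stand at 28 and 26 of 41 with medians of -0.85 and -0.76, and all genes at 13.0% and 16.2%.

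Markers of blood-forming cells were lower in ablated bone too, though not they alone. Of 7 adipocyte markers, 5 fell in each comparison, with median log2 differences of -2.07 in laser bone and -2.24 in bur bone. Of all genes, 13.0% fell in laser bone and 16.2% in bur bone. Of 21 tested erythroid markers, 21 fell in laser bone and 19 in bur bone, with median log2 differences of -2.25 and -2.27. Their summed signal, in multiples of the array's 75th percentile, was 29.6 to 93.4 in laser bone, 19.8 to 91.8 in bur bone and 95.1 to 437 in control bone. Gata1, the defining erythroid factor, was well above background on every array and differed by -2.72 in laser bone and -2.82 in bur bone. Neutrophil and granulocyte precursor markers fell for 9 of 16 in laser bone and 8 of 16 in bur bone, with summed signals of 182 to 557 in laser bone, 211 to 378 in bur bone and 451 to 1094 in control bone. Their marker Mpo had log2 differences of -1.61 (adjusted p = 0.0655) and -1.58 (adjusted p = 0.0648).

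B cell markers fell for 5 of 15 in laser bone and 4 of 15 in bur bone, with summed signals of 4.51 to 8.87 in laser bone, 4.41 to 8.39 in bur bone and 9.53 to 35.1 in control bone. Macrophage markers went the other way: 4 of 15 rose in laser bone and 6 of 15 in bur bone, with summed signals of 54.1 to 82.9, 51.5 to 84.6 and 34.2 to 48.3 in laser, bur and control bone. Of all genes, 9.26% rose in laser bone and 9.99% in bur bone. Of 14 tested osteoblast and osteocyte markers, 8 rose in laser bone and 2 in bur bone, and 0 fell. The part of these cell types in the lower replication genes was not tested. In whole bone, fewer dividing cells and less replication RNA in each cell cannot be told apart.

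The arrays were also set side by side. As the median deviation from each gene's mean over 12 arrays, the replication genes stood at -0.08, -0.44, -0.35 and -0.30 on laser replicates 1 to 4, at -0.36, -0.05, -0.42 and -0.10 on bur replicates 1 to 4 and at 0.62, 0.39, 0.05 and 1.24 on control replicates 1 to 4. For the erythroid markers the same measure was 0.40, -1.39, -0.89 and -1.28 on the laser arrays, -0.72, 0.32, -2.08 and -0.50 on the bur arrays and 1.92, 1.42, 0.15 and 2.48 on the control arrays. Laser replicate 1, bur replicate 2 and control replicate 4 were the highest of their groups on both measures. Laser replicate 2, bur replicate 3 and control replicate 3 were the lowest of theirs on both. Among the control arrays the same measure ran from 0.02 to 1.87 for the neutrophil markers and from 0.13 to 2.30 for the B cell markers. For the macrophage markers it ran from -0.74 to -0.23.

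**Figure D5:**
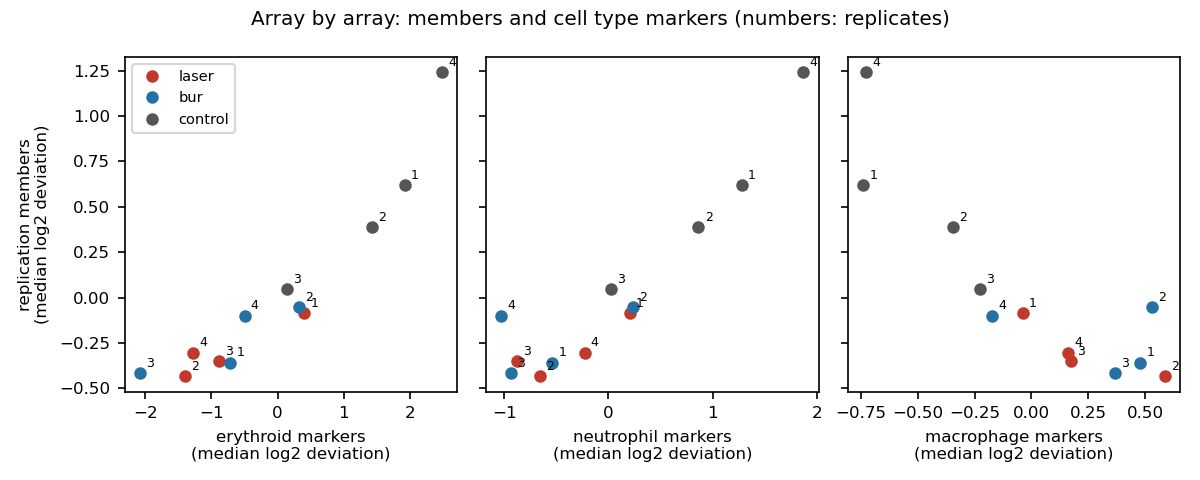
Median log2 deviation of the 41 replication genes on each array (vertical axis) against that of the erythroid, neutrophil and macrophage markers (horizontal axes), with points numbered by replicate and coloured by group. Control replicates 4, 1 and 2 stand apart at 1.24, 0.62 and 0.39 on the vertical axis, and control replicate 3 lies at 0.05, near the ablated arrays.

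The authors' deposited comparison tables held 38 of the 42 genes. In the authors' deposited table of laser against control, 28 of the 38 were lower at an adjusted p under 0.05 and 0 were higher, with a median log2 change of -0.72. These were not the same 28 genes as above. Mcm6, Pcna, Rfc2 and Rpa2 passed in the deposited table only. Cdt1 and Pole did not pass there, and Dut and Exo1 were not in it. The authors' deposited table of bur against control had 22 lower and 0 higher with a median of -0.71, and that of laser against bur had 0 in either direction with a median of -0.05. In bur bone Pcna passed in the deposited table only, while Cdt1, Pole and Pole2 did not pass there. The share of all genes called in the deposited tables was not counted.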

How the data were processed

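Total RNA of 12 calvarial samples was measured on 1-colour (Cy3) Agilent arrays. The deposited scanner output holds spot intensity on a linear scale, background-subtracted and detrended per the file headers, which name Agilent Feature Extraction 11.0.1.1. No step normalized it between arrays. Besides these, the authors deposited log2 values of all samples in a table, and the log2 changes and p-values of 3 comparisons. How these were made is not given in the sources used. The log2 table repeats the probe of 3062 of its 24920 lines, and these lines were left out.

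The processed intensity was put on a log2 scale relative to the 75th percentile of each array's non-control spots. Spots flagged as outliers were left out, and spots of a probe were averaged. Probes had to be well above background on 4 or more of the 12 arrays (29775 probes), and the brightest kept probe stood for each of 22718 gene names. Precision is limited by the number of arrays. Groups were compared in limma 3.58.1 with R 4.3.3 (lmFit and eBayes, a mean per group, all 12 arrays, two-sided), with Benjamini-Hochberg adjustment over all genes and a threshold of 0.05. Promoters and symbols came from RefSeq tables of GRCr8. Of the 42 genes, the accessions of 38 matched that table, each with the same symbol.

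The genes and all other lists were chosen with earlier results of these data known. Per-array values were given by role for the called genes with the largest difference in laser bone, for genes called in 1 comparison or detected in few arrays, for genes whose probes disagreed and for a few others. Up to 4 called genes were named from each other list, besides Mki67, Cdkn1a, Ccnd1 and 3 defining markers. A further defining marker is not reported here. On simulated data, 49% of genes with a log2 change of 1 and 82% with a change of 2 were recovered over 22718 genes in laser against control. Each simulated gene had the same spread in all groups, and 100 genes per size were changed, in laser bone alone. In the real data 2958 genes fell and 2103 rose in this comparison, and control arrays spread more for most replication genes. These shares therefore need not hold for the real arrays. Deviations from the group mean of arrays with the same number correlated at 0.13 to 0.34 between laser and control, 0.16 to 0.34 between laser and bur and -0.05 to 0.28 between bur and control. These exceeded all values of unlike numbers between laser and bur, and by little between laser and control (lowest 0.126 against a highest unlike value of 0.125). Between bur and control they did not. Numbers that paired the laser arrays with both groups would also pair bur with control, so this check does not settle the pairing. No label says what the numbers share. The reported fits hold no pairing, and the block was an alternative. Alternatives were normexp background correction (offset 50), quantile normalization, the percentile over probes detected on all arrays, no detection filter, detection on all 12 arrays, the mean of kept probes, the replicate number as a block, a fit of the 2 groups only, array weights, the authors' deposited log2 values and each array left out.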

Additional observations from a re-analysis of the deposited data

Results flagged for a closer look

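The arrays of each of the 42 genes were examined in each group, which makes 126 sets of 4 values, for an array whose gap to its nearest neighbour took an unusually large share of the range (Dixon's test at 95%). There were 8 such arrays, where chance gives about 1 in 20 sets. Orc1 stood at -8.60 on laser replicate 3, and its laser difference missed the threshold without that array, as did those of most called genes: the count in laser bone was then 7 in place of 28. Pola1 was lowest on laser replicate 4, at -6.45, and Rpa2 was lowest on laser replicate 2, at -0.52. Chaf1b was highest on laser replicate 1, at -0.18. Pold1 was lowest on bur replicate 1, at -0.58, and Ccne2 was highest on bur replicate 4, at -0.82. Control replicate 4 was the highest control array for Rfc5, at -1.13, and for the undetected Dnmt1 probe, at -7.52.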

How the results depend on the processing

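No called gene changed sign under any alternative, and under every alternative 0 replication genes rose against control and 0 passed between laser and bur bone. The median log2 difference of the replication genes ran from -0.85 to -0.65 in laser bone and from -0.76 to -0.69 in bur bone over 10 other settings, and from -1.06 to -0.64 and from -0.97 to -0.57 with each array left out. The count of replication genes that fell in laser bone, 28 of 41, was 16 of 42 with no detection filter, 7 with only the laser and control arrays in the fit, and 3 to 34 with an array left out. In bur bone the count of 26 was 14 with only the bur and control arrays and 11 to 30 with an array left out. Of the called genes, 3 of 28 in laser bone (Pole2, Brca1 and Atad2) and 9 of 26 in bur bone passed in all 12 of these fits. Other replication genes, 13 in laser bone, were 25 with array weights, 4 with the 2 groups only and 4 to 25 with an array left out. In bur bone their count of 16 was 9 with the 2 groups only and 4 to 21 with an array left out. Mitosis genes, 11 in laser bone, were 6 with no filter, 1 with the 2 groups only, 18 with the replicate block and 0 to 21 with an array left out. In bur bone their 11 were 17 with normexp, 5 with the 2 groups only and 4 to 18 with an array left out. The share of all genes called lower moved too: from 13.0% in laser bone to 4.87% with the 2 groups only, 5.65% with no filter, 14.6% with the block and 17.6% with array weights, and from 16.2% in bur bone to 13.0% with the 2 groups only and 27.8% with normexp. These counts are therefore not about these lists alone. The fits of 2 groups and those without an array have fewer samples. The main fit shares 1 estimate of spread over all 3 groups, while the fits of 2 groups take it without the other ablated group. The median SD of the replication genes was 0.54 in control bone, 0.24 in laser bone and 0.20 in bur bone. What moved the counts was not tested. With the replicate number as a block, 29 replication genes fell in laser bone, with Pcna added to the 28. In bur bone 25 fell with this block: Cdc6 and Tk1 dropped out and Tyms came in. The block gave 0 calls between laser and bur bone. Normexp moved the median of all genes to -0.08 in laser bone and -0.24 in bur bone against control, and to 0.13 between laser and bur bone. The dim probes of Atad2, Orc1 and Cdt1 gave sizes that moved with the background correction, as reported above.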

Other observations

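Of the remaining marker lists, adipocyte markers fell for 5 of 7 in laser bone and for 5 of 7 in bur bone, with median log2 differences of -2.07 and -2.24. Of all genes, 13.0% fell and 9.26% rose in laser bone, and 16.2% fell and 9.99% rose in bur bone. T cell and NK cell markers moved in both directions: 6 of 13 fell and 1 rose in laser bone, and 5 fell and 1 rose in bur bone. Fibroblast and myofibroblast markers rose for 3 of 12 in laser bone and 4 of 12 in bur bone, with median log2 differences of 0.78 and 0.80. Endothelial markers fell for 1 of 8 in laser bone, near the share of all genes, and for 2 of 8 in bur bone, with medians of 0.13 and 0.01. The macrophage marker Cd68 had log2 differences of 0.49 (adjusted p = 0.215) in laser bone and 0.77 (adjusted p = 0.0628) in bur bone.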
